A study of Mus musculus with 28 samples.

Results

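The NF-κB subunits and inhibitors were followed in these data through 10 genes. Rel, Rela, Relb, Nfkb1 and Nfkb2 encode the subunits, Nfkbia, Nfkbib and Nfkbie encode the classical inhibitors IκBα, IκBβ and IκBε, Nfkbid encodes the nuclear protein IκBNS, and Tnfaip3 encodes A20, an enzyme that edits ubiquitin and ends NF-κB signals. They were chosen by gene name out of the 24089 genes of the RNA-seq table, and all 10 were present and passed the filter on low values in every comparison. RNA was sequenced from naive CD4+ CD62L+ T cells of the mouse that had been stimulated through the T cell receptor (anti-CD3) and CD28, with no added cytokine (control), with TGF-β, with IL-4 or with both, the mixture that yields IL-9-producing Th9 cells. The animals were taken to be young adult Tgfbr1 f/f Ert2-cre mice on a C57BL/6 background, and the study used both sexes. On this reading, WT cells came from mice given oil and KO cells from mice given tamoxifen. Tamoxifen lets the Ert2-cre recombinase, present in many cell types, cut the floxed TGF-β receptor I gene. WT cells therefore also carry the floxed allele and the Cre transgene, and loss of the receptor and exposure to tamoxifen cannot be told apart. Each of the 8 combinations held 3 libraries, and the length of the culture behind the RNA is not given in the sources used here. Open chromatin was mapped by DNase-seq as DNase I hypersensitive sites (DHSs). This gave 1 library each for WT and KO cells under control and under TGF-β plus IL-4. Oil or tamoxifen is named in the titles of the DNase-seq libraries, while the RNA-seq titles say only WT or KO. The study also bred Tgfbr1 f/f Cd4-cre mice.

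NF-κB is a family of dimeric transcription factors. In a resting cell most dimers are held in the cytoplasm by IκB proteins, and signals from the T cell receptor, CD28 or TNF family receptors lead to IκB breakdown and let the dimers enter the nucleus. There they switch on genes for growth and inflammation and, among them, the genes of several inhibitors and subunits, so that the pathway sets its own limits. In T cells c-Rel, the product of Rel, is needed for full production of IL-2.

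The reading of the columns decides the results below. The columns of the expression table carry headings that name the cultures, and they also stand in a fixed order. For 8 WT libraries the study supplies read counts, and the genes at 0 in those counts identify each library's column, with at least 99.8% of genes in the same state (at 0 or above it) in the best column and at most 85.9% in the second best. The order of library numbers put 8 of 8 in that column and the headings only 2 of 8, so that 6 headings conflicted with the counts. All values here were read by order, with WT in the first 12 columns and KO in the last 12, each run of 4 being control, TGF-β, IL-4 and both. The remaining 4 WT and all 12 KO columns rest on the order alone. The 2 readings put 16 of 24 columns in different cultures and none in a different genotype. By order, the median SD among the 3 libraries of a WT group was 0.0892 on the log2 scale, against 0.141 by heading, and in KO it was 0.109 against 0.112. With the columns taken as headed, 0 members passed in any of the 16 comparisons (limma). Over all genes 0 passed as well, except 7 of 9672 for KO against WT in control. Between 0 and 3 members per comparison were at an unadjusted p under 0.05, and the share of all genes at that p was not computed.

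Relative depth, read from the smallest steps of the values, ran from 0.794 to 1.66 times that of the reference library, WT TGF-β plus IL-4 replicate 3. Tgfbr1 itself was at 3.02 to 3.31 RPKM (reads per kilobase of gene, scaled to the mapped reads of the library) in WT control and 2.32 to 3.05 in KO control. These values sum reads over the whole gene, so they cannot show whether the floxed part was lost. With TGF-β, Tgfbr1 stood at 13.9 to 14.5 in WT and at 2.37 to 3.24 in KO. Il9 stood at 8.15 to 10.9 RPKM in WT control, 40.1 to 45.9 with TGF-β, 13.0 to 17.4 with IL-4 and 33.6 to 36.1 with both. In WT, Il9 was thus higher with TGF-β alone than with both cytokines, without overlap. The paper states that neither cytokine by itself induces Il9. Over the KO groups Il9 ran from 0.250 to 2.72. The CD4 T cell markers Cd3d, Cd3e, Cd3g, Cd4, Cd28 and Lck were high in all 24 libraries, with a summed level of 1035 to 1469. The summed markers of other cells were lower than this but not absent. All 3 granulocyte markers (S100a8, S100a9 and Elane) were in the table, each listed at 0 in 2 or 3 libraries, and they summed to 4.94 to 14.5 in WT control, 42.8 to 69.2 in WT TGF-β and 79.4 to 117 in WT TGF-β plus IL-4, against 0.305 to 17.4 over the KO groups. The 3 NK cell markers (Ncr1, Klrb1c and Klra8) summed to 2.33 to 2.53 in WT control and 0.558 to 0.802 in WT TGF-β, with Klra8 listed at 0 in 3 libraries. The 3 dendritic cell markers (Itgax, Flt3 and H2-Aa), none at 0 in any library, summed to 18.3 to 33.3 in WT control. The sum was 29.4 to 62.9 in WT with both cytokines and 6.40 to 8.77 in KO control. Nearly all of it was H2-Aa (6.17 to 62.1), with Itgax at most at 0.621 and Flt3 at most at 0.407. The 2 CD8 markers summed to 14.3 to 36.3, the 4 B cell markers to 7.89 to 33.3 and the 5 myeloid markers (Csf1r listed at 0 in 3 libraries) to 5.25 to 42.1. The part of these cells in the results was not tested, and fewer cells of a type and less RNA per cell cannot be told apart in bulk libraries.

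The promoters of the members that moved with TGF-β are shown first, because NF-κB genes are known to be read by NF-κB itself. RefSeq promoters (build GRCm38.p6) were at hand for 8 of the 10 members, Relb and Nfkb1 being named only, with 13 starts in all. In the 250 bases before each start, the κB consensus was searched on both strands. It was found at 8 of the 13 starts, in Rel, Nfkb2, Nfkbia, Nfkbie, Nfkbid and Tnfaip3, against 3.90% of all 32851 promoters in the table (1281). No match was found for Rela or Nfkbib. Capitals below mark the matches, with overlapping matches joined into one stretch. The sequences run 5′ to 3′ and end at the base before the start.
Rel (chr11:23770970-23771219, minus strand): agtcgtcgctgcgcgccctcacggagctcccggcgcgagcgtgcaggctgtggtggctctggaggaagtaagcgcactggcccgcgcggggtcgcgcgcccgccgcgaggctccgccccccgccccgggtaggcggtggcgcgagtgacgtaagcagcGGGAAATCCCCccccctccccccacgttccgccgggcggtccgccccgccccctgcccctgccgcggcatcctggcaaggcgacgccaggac
Nfkb2, most upstream start (chr19:46304487-46304736, plus strand): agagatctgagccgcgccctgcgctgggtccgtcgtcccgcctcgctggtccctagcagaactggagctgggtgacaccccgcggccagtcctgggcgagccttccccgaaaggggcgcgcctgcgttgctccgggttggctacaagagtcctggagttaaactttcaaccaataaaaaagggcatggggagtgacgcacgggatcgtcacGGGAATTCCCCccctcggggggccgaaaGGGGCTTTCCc
Nfkbia (chr12:55492648-55492897, minus strand): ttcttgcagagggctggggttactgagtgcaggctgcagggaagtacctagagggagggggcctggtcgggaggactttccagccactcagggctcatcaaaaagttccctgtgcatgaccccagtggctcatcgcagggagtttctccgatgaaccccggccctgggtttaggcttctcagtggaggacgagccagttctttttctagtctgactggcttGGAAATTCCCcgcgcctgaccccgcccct
Nfkbie (chr17:45555450-45555699, plus strand): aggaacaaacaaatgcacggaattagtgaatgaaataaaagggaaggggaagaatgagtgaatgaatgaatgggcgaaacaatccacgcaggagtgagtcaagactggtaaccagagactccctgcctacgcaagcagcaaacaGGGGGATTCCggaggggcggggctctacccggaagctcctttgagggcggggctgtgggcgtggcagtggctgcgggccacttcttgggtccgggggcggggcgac
Tnfaip3, most upstream start (chr10:19015411-19015660, minus strand): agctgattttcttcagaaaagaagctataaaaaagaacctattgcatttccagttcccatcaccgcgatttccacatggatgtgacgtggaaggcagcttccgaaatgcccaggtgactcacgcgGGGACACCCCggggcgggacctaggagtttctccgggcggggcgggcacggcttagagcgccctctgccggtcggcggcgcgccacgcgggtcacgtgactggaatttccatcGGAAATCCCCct
Nfkbib (chr7:28766645-28766894, minus strand): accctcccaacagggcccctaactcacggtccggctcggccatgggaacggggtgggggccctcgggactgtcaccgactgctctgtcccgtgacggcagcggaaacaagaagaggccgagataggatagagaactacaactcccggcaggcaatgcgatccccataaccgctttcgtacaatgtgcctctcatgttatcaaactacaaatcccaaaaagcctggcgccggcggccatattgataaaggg
Rel held 1 stretch, 92 to 82 bases before its start, where matches on both strands overlapped. Nfkb2 held 2 stretches at this start, 39 to 29 and 11 to 2 bases before it. Nfkbia held 1 match 29 to 20 bases before the start, and Nfkbie held 1 match 106 to 97 bases before it. Tnfaip3 held a match 125 to 116 bases before its start and another 12 to 3 bases before it. A match is a run of letters and was not tested as a binding site. Each of the 6 sequences was found once, without a mismatch, in the mm9 genome of the deposited files and overlapped a DHS in all 4 DNase-seq libraries.

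**Figure D1:**
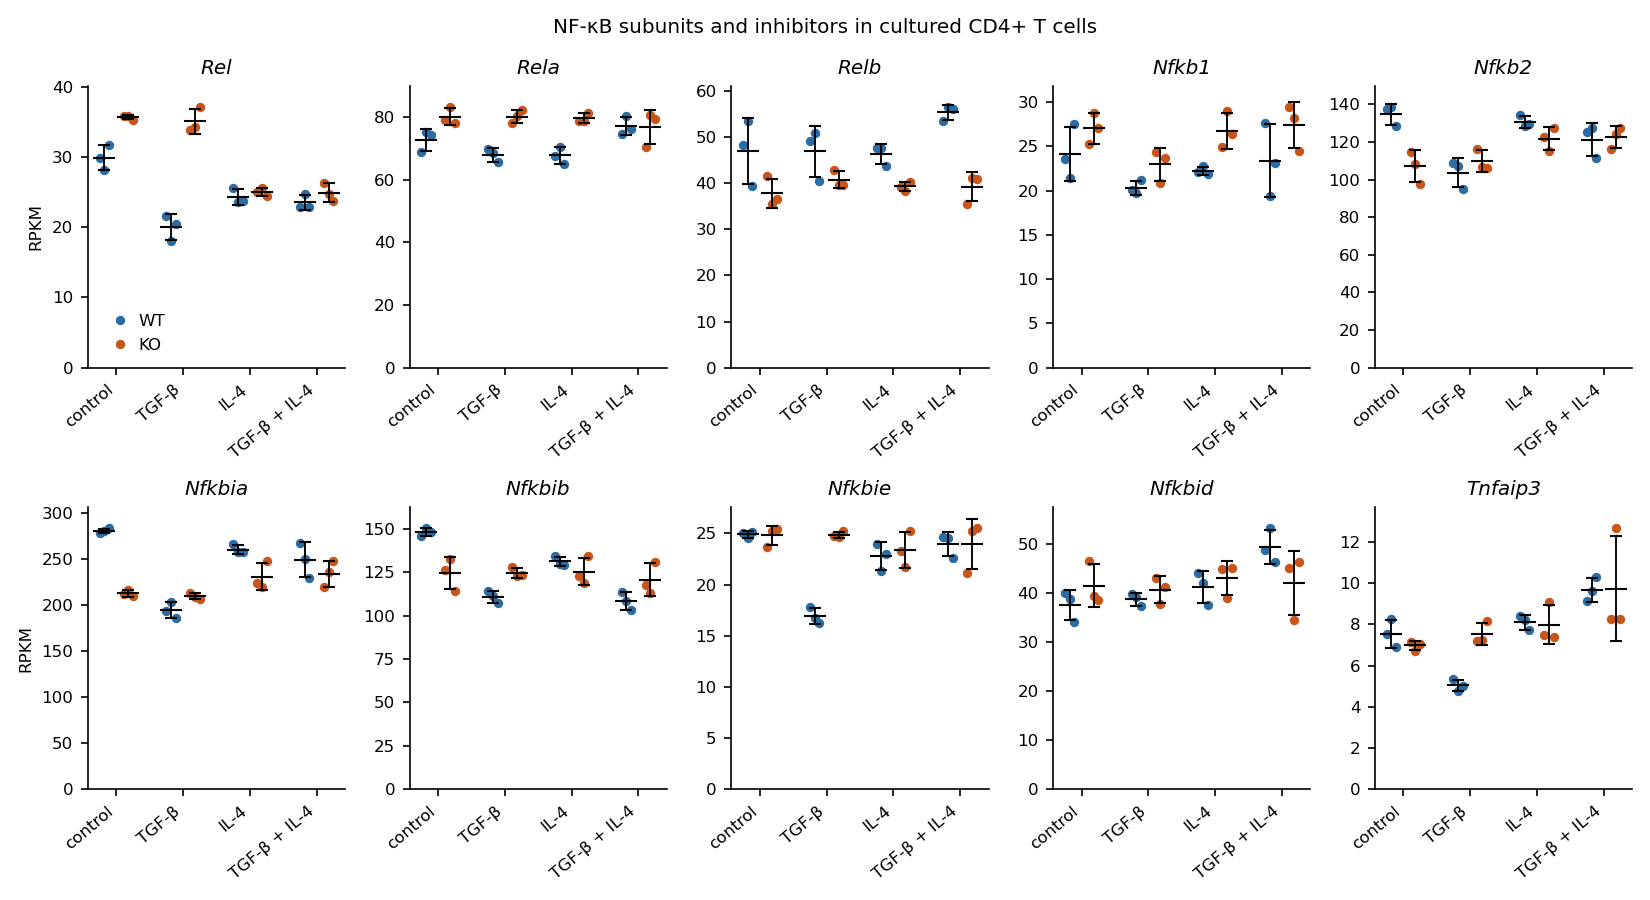
RPKM of the 10 genes in each library (points, blue WT and orange KO, 3 per group) with the group mean and SD (black) under the 4 cultures, on axes that start at 0. Rel, Nfkb2, Nfkbia, Nfkbib, Nfkbie and Tnfaip3 fall with TGF-β in WT at an adjusted p under 0.01 (limma). The points of Nfkb1 in WT are also lower with TGF-β than in control, without overlap, but Nfkb1 did not pass. In KO the points of control and TGF-β are apart for Nfkb1 (lower with TGF-β) and Tnfaip3 (higher) and overlap for the other genes.

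The members differed widely in level. RPKM is scaled by gene length, so levels were set side by side between genes. Removal of redundant reads can lower abundant genes, and its effect on the order and shares below was not tested. Nfkbia was the most abundant, at 234 ± 28.8 RPKM (mean ± SD, n = 24 libraries), which is the 98.0th percentile of the genes in the table. Nfkbib (124 ± 12.8) and Nfkb2 (119 ± 12.03) came next, then Rela (75.2), Relb (44.2), Nfkbid (41.9), Rel (27.3), Nfkb1 (24.3), Nfkbie (23.2) and Tnfaip3 (7.83 ± 1.68). For 4 pairs, neighbours did not keep this order in every library. Nfkbib was above Nfkb2 in 19 of 24 libraries, Relb above Nfkbid in 14, Rel above Nfkb1 in 15 and Nfkb1 above Nfkbie in 15. Between the highest and the lowest group mean, Tnfaip3 spanned 1.93-fold (KO with both cytokines over WT TGF-β) and Rel 1.78-fold (KO control over WT TGF-β). Rela spanned the least, 1.18-fold. WT TGF-β had the lowest mean of the 8 groups for Rel, Nfkb1, Nfkb2, Nfkbia, Nfkbie and Tnfaip3. The share of all genes with their lowest mean there was not computed. Nfkb2 made up the largest share of the summed RPKM of the 5 subunits in each group, from 37.2% of it in KO control to 44.9% in WT IL-4.

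A gene passed the test below when its p-value, adjusted by Benjamini-Hochberg over all genes tested in limma, was under 0.01. A stricter count also asked for a fold change over 1.5. In WT cells TGF-β alone lowered 6 of the 10 members and raised none, where 4.38% of all genes tested passed as lower, 11.1% passed in either direction and 5.71% passed the stricter rule. None of the 6 changed by over 1.5-fold. The median difference over all 10 members was −0.40 on the log2 scale, against 0.01 over all genes. In the same libraries the summed CD8 T cell markers went from 24.8 to 26.9 RPKM in control to 16.6 to 17.3 with TGF-β, beside the higher granulocyte and lower NK cell markers given above, and their part in these differences was not tested. IL-4 alone changed 0 members by this test, with 3 (Rel, Nfkbia and Nfkbib) at an unadjusted p under 0.05, as were 17.4% of all genes. By the 2 rules, 2.07% and 1.29% of genes passed. TGF-β plus IL-4 against control changed 4 members, 2 of them up and 2 down, which is near the background of 27.5% (9.27% by the stricter rule). Adding TGF-β to IL-4 changed 2 members, below the background of 29.4% (9.28%). Adding IL-4 to TGF-β raised 4 members and lowered none, where 6.43% of genes passed as higher, 9.26% in either direction and 3.03% by the stricter rule, and only Tnfaip3 met the latter.

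KO cells gave another picture. TGF-β against control changed 0 of 10 members, with 1 (Nfkb1) at an unadjusted p under 0.05, as were 2.57% of all genes. Of all genes 1 passed, 0.0105% by either rule, and 2 passed with the replicate number as a block. The 95% intervals of the 10 differences lay between −0.40 and 0.27 on the log2 scale. IL-4 changed 1 member, Rel, where 3.7% of genes passed and 2.51% by the stricter rule. TGF-β plus IL-4 also changed Rel alone, against 2.25% and 1.92%. The difference between genotypes in the response was tested as an interaction. For TGF-β, 5 members passed, all with a higher TGF-β minus control difference in KO than in WT, where they fell. Of all genes 2.72% passed as higher, 6.66% in either direction and 4.71% by the stricter rule. For both cytokines together 0 passed, with 4 (Nfkb2, Nfkbia, Nfkbib and Nfkbid) at an unadjusted p under 0.05, as were 28.0% of all genes. By the 2 rules, 6.16% and 4.18% of genes passed. For IL-4 alone, a comparison added after values had been seen, 0 passed, with 4 (Rel, Nfkb2, Nfkbia and Nfkbib) at an unadjusted p under 0.05, as were 8.21% of all genes. By either rule, 0.0414% of genes passed.

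**Figure D2:**
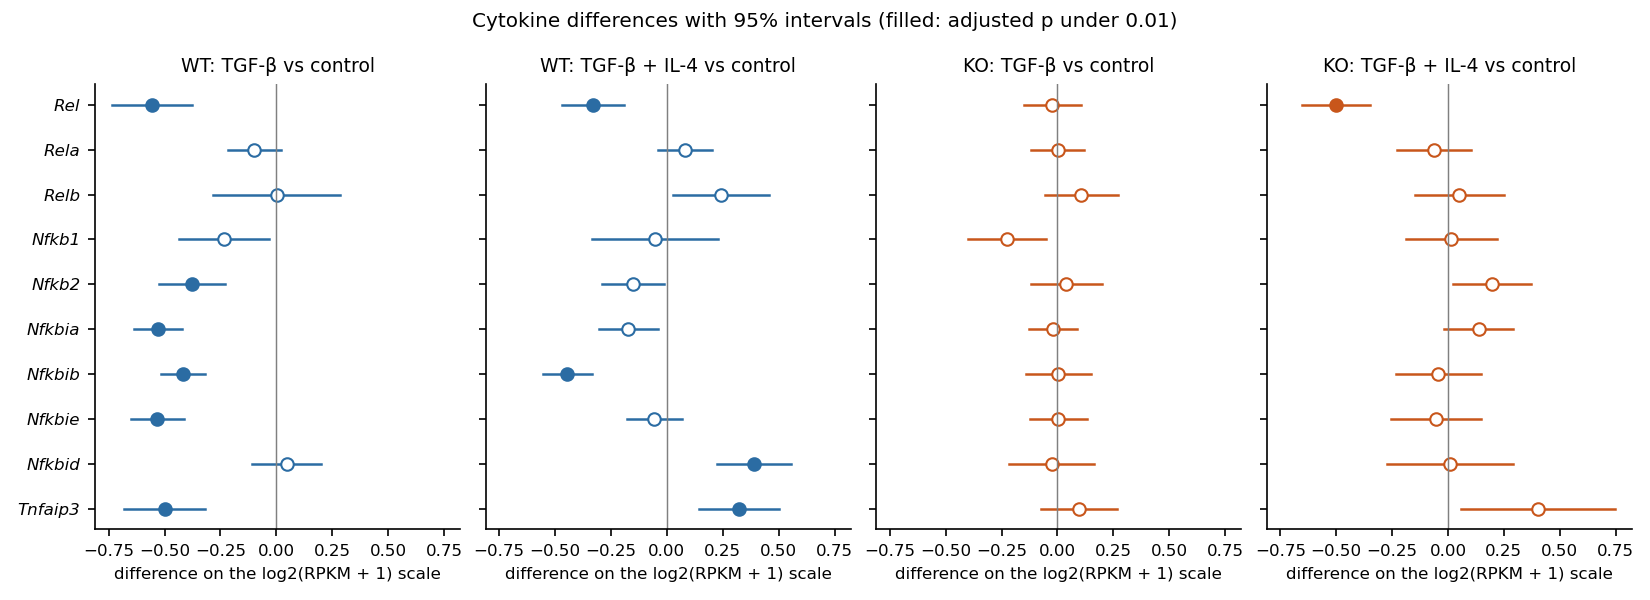
Difference of each member between a cytokine culture and control on the log2(RPKM + 1) scale, with its 95% interval, in WT (blue) and KO (orange). Filled circles passed at an adjusted p under 0.01: 6 with TGF-β and 4 with both cytokines in WT, and in KO 0 with TGF-β and Rel alone with both.

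Rel had the clearest pattern among the subunits. It stood at 29.9, 28.1 and 31.7 RPKM in WT control, at 21.7, 18.0 and 20.5 with TGF-β, at 25.6, 23.6 and 23.7 with IL-4 and at 22.9, 24.8 and 22.9 with both. In KO it stood at 35.9, 35.8 and 35.3 in control, 33.9, 34.3 and 37.2 with TGF-β, 25.01, 25.6 and 24.4 with IL-4 and 26.3, 24.7 and 23.7 with both. The 3 WT TGF-β libraries lay below every other library, and KO control and KO TGF-β lay above all other groups. Rel fell by 0.56 ± 0.08 (log2 ± SE) with TGF-β in WT (adjusted p = 0.00177), and by 0.33 ± 0.06 with both cytokines (adjusted p = 0.00231). In KO it fell by 0.50 ± 0.06 with IL-4 (adjusted p = 0.000646) and by 0.50 ± 0.07 with both (adjusted p = 0.00381, or 0.0249 with the replicate number as a block). The change with TGF-β differed between genotypes by 0.53 ± 0.10 (adjusted p = 0.00255). With TGF-β present Rel was 0.78 ± 0.07 higher in KO than in WT (adjusted p = 8.09e-05). On the RPKM + 1 scale this is a 1.72-fold difference, the only one of a member past 1.5-fold between genotypes in the same culture. In WT the TGF-β difference was smaller in the presence of IL-4, by 0.51 ± 0.10 (adjusted p = 0.00712). The fall with IL-4 in WT missed the threshold (adjusted p = 0.0356), and the IL-4 response was not shown to differ between genotypes (adjusted p = 0.482). Leaving out WT control replicate 1 ended the calls of the WT falls (adjusted p = 0.0119 with TGF-β, 0.0118 with both), as did WT TGF-β plus IL-4 replicate 1 (0.0113) or 3 (0.0133) for both cytokines. The fall with both in KO was lost without any KO control replicate or KO TGF-β plus IL-4 replicate 3 (adjusted p from 0.0204 to 0.0271), and the interaction within WT was lost for 9 of 12 libraries left out (adjusted p from 0.0107 to 0.0205).

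Nfkb2 encodes p100, the precursor of p52 and itself an IκB-like inhibitor. It read 137, 139 and 128 RPKM in WT control and 109, 107 and 94.8 with TGF-β, with no overlap, and 134, 128 and 130 with IL-4 and 125, 127 and 111 with both. It fell by 0.38 ± 0.06 with TGF-β in WT (adjusted p = 0.00457). In KO it read 115, 109 and 97.9 in control and 116, 107 and 106 with TGF-β, so the groups overlapped and KO control lay below all 3 WT control libraries. The TGF-β response of Nfkb2 was not shown to differ between genotypes (adjusted p = 0.015). The WT call was lost without WT TGF-β replicate 1 (adjusted p = 0.0108), WT control replicate 1 (0.0271) or WT control replicate 2 (0.0176). It was also lost with only the libraries identified by read counts (adjusted p = 0.0109).

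Rela, which encodes p65, the main activating subunit, was steady against control. It read 68.8, 75.2 and 74.4 RPKM in WT control, 69.6, 68.5 and 65.5 with TGF-β, 67.7, 70.3 and 65.1 with IL-4 and 74.6, 80.2 and 76.2 with both. The KO groups ran from 70.4 to 83.2. No cytokine comparison against control passed for Rela in either genotype. Under TGF-β, Rela was 0.24 ± 0.05 higher in KO than in WT (adjusted p = 0.00394), and the call was lost without WT TGF-β replicate 1 or 3 or KO TGF-β replicate 2 or 3 (adjusted p from 0.0113 to 0.0177).

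Relb encodes the usual partner of p52 in the alternative pathway. In WT, Relb read 48.3, 53.5 and 39.5 RPKM in control, 49.3, 51.0 and 40.6 with TGF-β, 47.6, 47.7 and 43.8 with IL-4 and 53.6, 56.6 and 56.1 with both. The last group lay above every other library of the series. The summed CD4 T cell, B cell, myeloid, dendritic cell and granulocyte markers also reached their highest values in that group. The CD8 and NK cell markers did not, and the part of these cells was not tested. Over the KO groups Relb ran from 35.6 to 43.0, without a change that passed. Relb was 0.25 ± 0.05 higher with both cytokines than with IL-4 in WT (adjusted p = 0.00327), a call lost without WT TGF-β plus IL-4 replicate 2 (adjusted p = 0.0146) or 3 (0.0163). With both cytokines it was 0.49 ± 0.07 lower in KO than in WT (adjusted p = 0.00136), the only member to differ there, where 18.9% of all genes passed and 8.44% by the stricter rule. The interaction of genotype with both cytokines was not passed by Relb (adjusted p = 0.407).

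Nfkb1, which encodes p105 and p50, passed in no comparison. Its levels were 23.6, 21.4 and 27.5 RPKM in WT control, 20.1, 19.7 and 21.2 with TGF-β, 22.1, 22.8 and 21.9 with IL-4 and 27.6, 19.4 and 23.1 with both. The WT TGF-β libraries lay below WT control, and the 3 libraries with both cytokines held the lowest, the highest and a middle value of the WT groups. In KO, Nfkb1 was at 25.3 to 28.7 in control and lower, at 20.9 to 24.4, with TGF-β, also without overlap. The TGF-β difference was not shown to differ between genotypes (adjusted p = 0.978). Over all KO groups it ran from 20.9 to 29.5.

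Nfkbia is the fast negative-feedback inhibitor of the pathway. It was at 278, 280 and 283 RPKM in WT control, 194, 203 and 186 with TGF-β, 266, 257 and 257 with IL-4 and 268, 251 and 230 with both. In KO it was at 212, 216 and 209 in control, 213, 208 and 207 with TGF-β, 224, 220 and 247 with IL-4 and 219, 236 and 247 with both. WT control lay above every other library, and WT TGF-β lay below all of them. TGF-β lowered Nfkbia by 0.53 ± 0.05 in WT (adjusted p = 0.000141), a call kept without each of the 6 libraries in turn. This change differed between genotypes by 0.51 ± 0.06 (adjusted p = 7.88e-05), the smallest adjusted p of any member in that comparison. With no cytokine, Nfkbia was 0.40 ± 0.05 lower in KO than in WT (adjusted p = 0.00157), the only one of 10 members to pass there, where 4.65% of genes passed and 2.46% by the stricter rule. Adding IL-4 to TGF-β raised it by 0.36 ± 0.06 (adjusted p = 0.00404), and the TGF-β difference was 0.47 ± 0.07 less negative with IL-4 than without (adjusted p = 0.00281). The control difference between genotypes was lost without WT control replicate 1 (adjusted p = 0.0156) or 2 (0.01002). The rise with IL-4 was lost without WT TGF-β plus IL-4 replicate 1 or 2 or WT TGF-β replicate 1 or 3 (adjusted p from 0.0146 to 0.0188).

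Nfkbib encodes IκBβ, an inhibitor that is broken down and remade more slowly than IκBα. It was low with TGF-β whether IL-4 was there or not. Nfkbib was at 146, 150 and 149 RPKM in WT control, 114, 111 and 107 with TGF-β, 135, 130 and 129 with IL-4 and 114, 109 and 104 with both. The libraries with TGF-β lay below those without it, with no overlap. Nfkbib fell by 0.42 ± 0.04 with TGF-β (adjusted p = 0.000327), by 0.45 ± 0.05 with both cytokines (adjusted p = 0.000113) and by 0.27 ± 0.05 from IL-4 to both (adjusted p = 0.00148). In KO it was at 126, 133 and 114 in control and 128, 123 and 123 with TGF-β, and over all KO groups it ran from 113 to 134. The TGF-β change differed between genotypes by 0.42 ± 0.07 (adjusted p = 0.00235). All 4 calls were kept with each library left out in turn. With only the libraries identified by read counts, the fall from IL-4 to both missed the threshold (adjusted p = 0.0135). A difference of the TGF-β change with and without IL-4 was not shown for Nfkbib in WT (adjusted p = 0.145).

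Nfkbie encodes IκBε, a slower feedback inhibitor. It read 25.1, 24.5 and 25.1 RPKM in WT control and 17.8, 16.7 and 16.3 with TGF-β, the lowest 3 of the 24 libraries, and then 24.01, 21.3 and 23.0 with IL-4 and 24.6, 24.6 and 22.6 with both. KO libraries ran from 21.1 to 25.5 in all cultures. TGF-β lowered Nfkbie by 0.53 ± 0.05 in WT (adjusted p = 0.000259), and this differed between genotypes by 0.54 ± 0.07 (adjusted p = 0.000173). Adding IL-4 to TGF-β raised it by 0.48 ± 0.06 (adjusted p = 0.000858). The TGF-β difference with IL-4 was 0.60 ± 0.08 less negative than without it (adjusted p = 0.000893), past 1.5-fold. Under TGF-β, Nfkbie was 0.53 ± 0.05 higher in KO than in WT (adjusted p = 0.000125). These 5 calls of Nfkbie were kept with each library left out in turn. With only the libraries identified by read counts, the difference with and without IL-4 missed the threshold (adjusted p = 0.0172).

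Nfkbid, a nuclear IκB protein that tunes the genes NF-κB switches on, was not lower with TGF-β. It was at 39.98, 38.8 and 34.1 RPKM in WT control, 39.9, 39.2 and 37.3 with TGF-β, 44.1, 42.1 and 37.7 with IL-4 and 48.9, 53.3 and 46.4 with both. The group with both cytokines lay above the other 3 WT groups without overlap. It rose by 0.39 ± 0.07 against control (adjusted p = 0.00255) and by 0.34 ± 0.06 against TGF-β alone (adjusted p = 0.00435). KO libraries ran from 34.7 to 46.7 with no change that passed, and the interaction with genotype did not pass (adjusted p = 0.135). The first call was lost without WT TGF-β plus IL-4 replicate 1 (adjusted p = 0.0102) or 2 (0.0122), and the second without either of these or WT TGF-β replicate 1 or 3 (adjusted p from 0.0146 to 0.0165).

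Tnfaip3 had the widest span of group means. A20 removes ubiquitin chains that carry the signal to the IκB kinase, and its gene is itself a target of NF-κB. It read 7.51, 8.25 and 6.89 RPKM in WT control, 5.33, 4.78 and 5.00 with TGF-β, 8.42, 8.20 and 7.71 with IL-4 and 9.15, 9.60 and 10.3 with both. TGF-β gave the 3 lowest libraries of the series, and both cytokines together gave the highest WT group. In KO it read 7.16, 6.73 and 7.05 in control, 7.20, 7.25 and 8.17 with TGF-β, 7.46, 9.11 and 7.40 with IL-4 and 8.27, 12.7 and 8.26 with both, where 1 library stood above the other 2. The KO TGF-β libraries lay just above KO control without a change that passed. Tnfaip3 fell by 0.50 ± 0.08 with TGF-β in WT (adjusted p = 0.00324) and rose by 0.32 ± 0.08 with both (adjusted p = 0.0098, or 0.0149 with the replicate number as a block). From TGF-β alone to both cytokines it rose by 0.82 ± 0.07 (adjusted p = 0.000111), which is 1.77-fold on the RPKM + 1 scale. The group means in RPKM were 5.04 and 9.68. The TGF-β difference in WT was 0.73 ± 0.10 higher with IL-4 than without it (adjusted p = 0.00125). Between genotypes the TGF-β change differed by 0.60 ± 0.10 (adjusted p = 0.00202, or 0.0161 with all 24 libraries in one fit). Under TGF-β the level was 0.50 ± 0.08 higher in KO (adjusted p = 0.00128). The fall in WT was lost without WT TGF-β replicate 2 or 3 or WT control replicate 1 or 2 (adjusted p from 0.0108 to 0.0187). With only the libraries identified by read counts this fall was lost too (adjusted p = 0.0176). The rise with both was lost without WT control replicate 1 or 3 or any of the WT TGF-β plus IL-4 replicates (adjusted p from 0.0167 to 0.0441). It was also lost under median ratio scaling (adjusted p = 0.0242) and quantile normalization (0.0376). The same held with all 24 libraries in one fit (0.0251) and with only the libraries identified by read counts (0.0127).

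Between genotypes under the same culture, Rel, Rela, Nfkbie and Tnfaip3 were higher in KO with TGF-β, where 23.6% of all genes passed and 9.68% by the stricter rule. With IL-4 alone 0 members passed, with 4 (Rela, Relb, Nfkb1 and Nfkbia) at an unadjusted p under 0.05, as were 28.1% of all genes. By the 2 rules, 5.11% and 2.99% of genes passed there. Within WT, the 4 members with a higher TGF-β difference in the presence of IL-4 (Rel, Nfkbia, Nfkbie and Tnfaip3) compare with 2.77% of genes higher, 3.59% in either direction and 1.77% by the stricter rule, which Nfkbie and Tnfaip3 met. The comparisons of TGF-β, IL-4 and both against control share their control libraries.

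The balance of inhibitors and subunits was described by sums of RPKM. Nfkbia, Nfkbib and Nfkbie together came to 449 to 457 RPKM in WT control and 309 to 331 in WT TGF-β, and the 5 subunits to 301 to 317 and 243 to 270. The ratio of the first sum to the second was 1.44 to 1.52 in WT control and 1.21 to 1.27 in WT TGF-β, which do not overlap. It was 1.40 to 1.44 in WT IL-4 and 1.23 to 1.34 with both cytokines. In KO control it was 1.22 to 1.28, below WT control and level with WT TGF-β, and KO TGF-β ran from 1.23 to 1.26. No test was made of these sums, and they count RNA, not protein. The effect of removing redundant reads on them was not tested either.

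The genes around the members were taken from 3 lists and counted by the stricter rule. The lists were chosen with earlier results of these data known, so their counts beside all genes are a description and not a test. Of 28 known NF-κB targets in T cells, all tested, TGF-β in WT lowered 11 and raised 1. The median difference was −0.47 against 0.01 over all genes. Of the 9726 genes tested 5.71% passed, 222 as lower and 333 as higher. Il2, which encodes the T cell growth factor, fell the most, from 64.9 to 76.6 RPKM in control to 9.75 to 10.6, a change of −2.64 ± 0.07 (adjusted p = 7.38e-07). The chemokine gene Ccl3 fell from 133 to 140 RPKM to 31.7 to 40.2 (−1.89 ± 0.08, adjusted p = 4.36e-06), and Ccl4 from 588 to 613 to 224 to 249 (−1.32 ± 0.05, adjusted p = 3.20e-06). Csf2, which encodes GM-CSF, fell by 1.51 ± 0.13 (adjusted p = 0.000158). Lta, which encodes lymphotoxin α, was the gene that rose, by 0.92 ± 0.05 (adjusted p = 9.36e-06). In KO, TGF-β changed 0 of the 28 (median 0.00, with 0.0105% of all genes passing), and Il2 was at 48.9 to 71.0 RPKM in control and 54.5 to 71.7 with TGF-β. The genotype interaction was passed by 13 of the 28, 11 of them higher in KO, against 4.71% of all genes. The list also moved without TGF-β. IL-4 alone raised 3 and lowered 5 of the 28 in WT, against 1.29% of genes, and raised 2 and lowered 6 in KO, against 2.51%. With no cytokine, 8 of the 28 were lower in KO than in WT and 0 higher, with a median of −0.31 against 0.02 over all genes, of which 2.46% passed. With both cytokines in WT, 7 of the 28 fell and 1 rose, against 9.27% of genes. Ccl3 fell by 2.02 ± 0.06, Ccl4 by 1.43 ± 0.06 and Csf2 by 1.01 ± 0.12 (adjusted p = 4.76e-08, 3.82e-07 and 0.000211), as did Tnfrsf9, which encodes the costimulatory receptor 4-1BB, by 1.00 ± 0.05 (adjusted p = 7.28e-07). Irf4, a transcription factor of activated T cells, rose by 0.72 ± 0.06 (adjusted p = 3.15e-05).

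**Figure D3:**
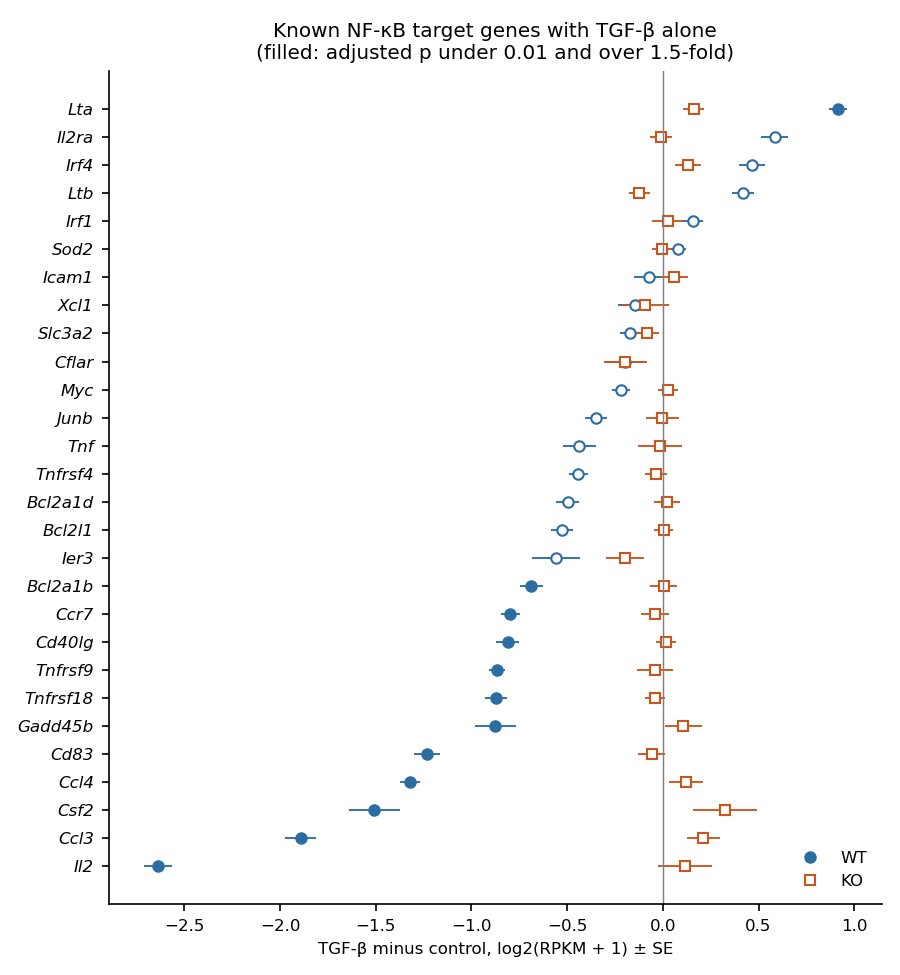
TGF-β minus control on the log2(RPKM + 1) scale for the 28 known NF-κB target genes (± SE), WT as blue circles and KO as orange squares, ordered by the WT value. Filled symbols passed at an adjusted p under 0.01 and over 1.5-fold: 12 in WT, from Il2 at −2.64 to Lta at 0.92, and 0 in KO. Of all genes 5.71% in WT and 0.0105% in KO passed. The list was chosen with earlier results of these data known.

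Upstream of the subunits, 24 of 25 kinases and adaptors of NF-κB activation were tested. TGF-β in WT raised 2 and lowered 1 of them, where 5.71% of all genes passed in either direction. Malt1, which encodes a protease that acts downstream of the T cell receptor, rose by 1.00 ± 0.05 (adjusted p = 7.91e-06), from 10.7 to 11.2 RPKM in control to 22.4 to 23.1. Traf6, a ubiquitin ligase of this pathway, rose by 0.95 ± 0.06 (adjusted p = 2.04e-05). Traf1, an adaptor of TNF family receptors and itself a known NF-κB target, fell by 1.03 ± 0.09 (adjusted p = 0.000178). With both cytokines 4 of the 24 passed, against 9.27% of genes, and among them Traf6 and Malt1 rose, by 1.00 ± 0.07 and 0.69 ± 0.06, and Traf1 fell by 0.82 ± 0.09. In KO, TGF-β changed 0 of the 24, and the genotype interaction was passed by 3 of them, 1 higher and 2 lower in KO, against 4.71% of genes. Of 16 brakes on NF-κB signalling and atypical IκB genes, 15 were tested, and TGF-β in WT raised 1 and lowered 0, a share near the 5.71% of all genes. That gene was N4bp1, which encodes an inhibitor of NF-κB activation cleaved by MALT1, at 1.22 to 1.57 RPKM in control, 4.16 to 4.98 with TGF-β and 7.01 to 7.32 with both (1.22 ± 0.09 and 1.79 ± 0.08, adjusted p = 4.90e-05 and 5.68e-07). In KO with TGF-β it stayed at 1.22 to 1.28. The median of this list with TGF-β was 0.00 in WT and −0.01 in KO.

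Open chromatin was present at every member gene. In the mm9 build of the DNase-seq files, the subunit genes lie at chr11:23641514-23670970 (Rel, minus strand), chr19:5637483-5648130 (Rela, plus), chr7:20191566-20214787 (Relb, minus), chr3:135247619-135354511 (Nfkb1, minus) and chr19:46379227-46386580 (Nfkb2, plus). The inhibitor genes lie at chr12:56590398-56593634 (Nfkbia, minus), chr7:29543270-29552531 (Nfkbib, minus), chr17:45692665-45700118 (Nfkbie, plus), chr7:31206751-31213765 (Nfkbid, plus) and chr10:18720716-18735463 (Tnfaip3, minus). The 4 DNase-seq libraries held 44298 DHSs (WT control), 33880 (WT both cytokines), 33665 (KO control) and 27145 (KO both cytokines), with 1 library per condition and therefore no test. All 10 members had a DHS within 1000 bp of their annotated start in all 4 lists, where 85.0% to 88.9% of the 8982 expressed genes that could be placed had one. With a window of 500 bp around the annotated start (GENCODE vM1) the count of members with an overlapping DHS was 9, and Nfkbib was the one without. The Nfkbib DHS had its summit 847 to 878 bp downstream of that start. The Nfkbib sequence printed above belongs to another start, that of RefSeq. In mm9 this sequence lies at chr7:29551664-29551913, downstream of the GENCODE start, and it overlaps the Nfkbib DHS. By the RefSeq start, Nfkbib therefore had a DHS at its promoter. The Nfkbib DHS was the strongest promoter DHS of the members. Its fold enrichment over background was 15.0 in WT control and 10.4 to 14.5 in the other lists, within the top 0.858% of the WT control list. Relb had its strongest promoter DHS 678 to 815 bp inside the gene (10.3-fold and 10.4-fold in the WT lists, 8.04-fold and 7.87-fold in the KO lists). Fold enrichments at the other promoters in WT control ran from 5.47 (Nfkbid) to 9.94 (Tnfaip3).

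In and within 10000 bp of the members there were 62 separate DHSs, 31 of them found in all 4 lists. Of the rest, some were in several of the following classes: 19 were seen in WT lists alone, 2 in KO lists alone, 17 in control lists alone and 6 in cytokine lists alone, and the part of the unequal list lengths in these counts was not tested. Nfkb1, the longest gene at 106893 bp, held 23 of the 62 and Nfkbib 1. In Rel, a DHS in the gene body at chr11:23654301-23654742 (mm9), 16499 bp from the start, was called in WT control (9.21-fold), KO control (6.01-fold) and KO with both cytokines (4.30-fold) and not in WT with both. In Tnfaip3, a DHS downstream of the gene at chr10:18719209-18719471 was called in both control lists (5.40-fold in WT, 4.17-fold in KO) and in neither cytokine list. A DHS inside Nfkb2 at chr19:46383593-46383875 was called in both WT lists (3.79-fold in control and 3.45-fold with both cytokines) and in neither KO list. A site missing from a list may still be open below the caller's threshold, which these lists do not show.

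**Figure D4:**
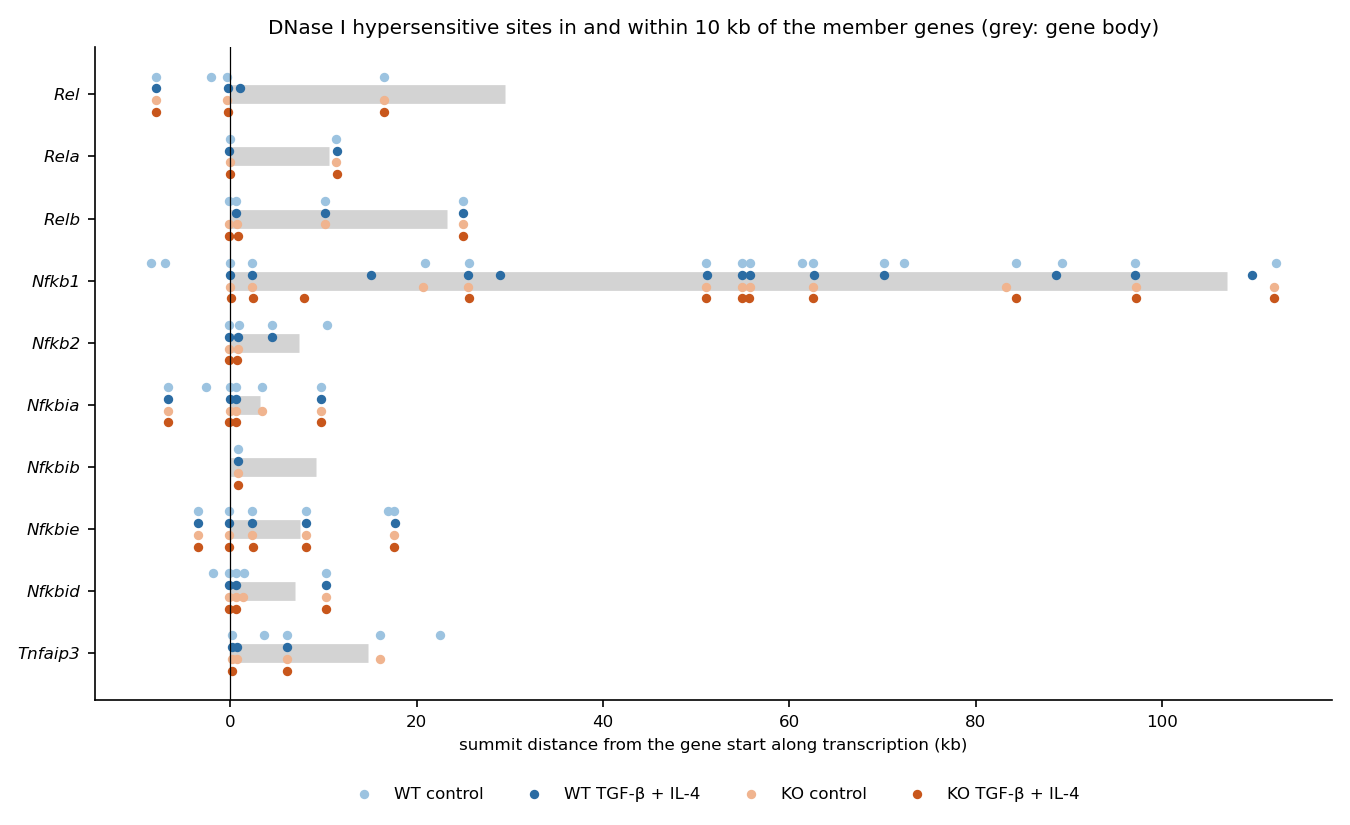
Summits of DHSs in and within 10 kb of each member, by distance from the gene start in kilobases along the direction of transcription, with the gene body in grey and 1 row of points for each DNase-seq library. Each gene has a point within 1 kb of 0 in all 4 libraries, and Nfkb1 holds the most sites, 23 of 62.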

How the data were processed

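Smart-seq2 RNA-seq was available from 24 libraries and DNase-seq from 4. Per the labels and the study's methods, the authors aligned the reads with Bowtie2 (build mm9), discarded redundant or poorly mapped ones and computed RPKM per gene with edgeR. For DNase-seq the authors called DHSs with MACS in each library and deposited, for each, its fold enrichment, a ratio to the local background, with p and q values as −log10. Tool versions and the gene annotation are not given in the sources used here. RPKM hold no counts, so depth was known only as relative depth between libraries. Removal of redundant reads can lower the values of abundant genes, and Smart-seq2 reads carry no molecular identifiers.

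RPKM columns were read by library order. Gene bounds and starts in mm9 came from the GENCODE vM1 annotation. Groups came from the labels, and 0 value columns had no sample. log2(RPKM + 1) values were fitted in limma 3.58.1 (R 4.3.3, eBayes with trend, two-sided) on the libraries of each comparison, keeping genes whose mean RPKM reached 1, with Benjamini-Hochberg adjustment over all genes tested, and interactions on the 12 libraries concerned. Fold changes on this scale understate the change of low genes. Replicate numbers were taken as mice, 1 number for the 4 cultures of a genotype. The correlation of same-numbered libraries' deviations from their group means ran from −0.09 to 0.55 in WT and from −0.30 to 0.42 in KO (18 pairs each), with medians of 0.06 and 0.19, against −0.03 and −0.12 for libraries with different numbers. Of the comparisons against control, every pair was above 0.1 only for TGF-β in KO. No label states separate animals outright, so p-values measure the spread between these libraries, which may be technical.

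The members and gene lists were chosen with earlier results of these data known. Of each list, the genes named were those passing both thresholds in WT with TGF-β or with both cytokines against control, at most the 4 largest changes in each direction. One result under this rule is not reported here. Genes with a pattern like a member's were to be named only for members that passed both thresholds against control in WT, and 0 did. Counting members by the adjusted p alone, the IL-4 interaction and the wider DHS window were added after values were seen. Alternatives were another pseudocount (0.1), no filter or a minimum of 5, median ratio scaling, quantile normalization, all 24 libraries in one fit, no trend, an adjusted p under 0.05, a replicate block, the columns as headed, only the libraries identified by read counts, and each library left out. The scripts were tested on simulated data. Python 3.11.15, pandas 2.3.3, numpy 2.4.6, scipy 1.17.1 and matplotlib 3.10.9 were used.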

Additional observations from a re-analysis of the deposited data

Results flagged for a closer look

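In 9 results the response differed between groups by the interaction test in limma (adjusted p under 0.01 over all genes, groups of 3 libraries). The TGF-β minus control difference was higher in KO than in WT for 5 members. It was so by 0.53 for Rel, 0.51 for Nfkbia, 0.42 for Nfkbib, 0.54 for Nfkbie and 0.60 for Tnfaip3 on the log2 scale. Each of these fell with TGF-β in WT, and with TGF-β in KO 0 members passed. Within WT, the TGF-β difference was higher with IL-4 than without it by 0.51 for Rel, 0.47 for Nfkbia, 0.60 for Nfkbie and 0.73 for Tnfaip3. Each of these fell with TGF-β alone, and none of them passed from IL-4 to both cytokines. These 9 values rest on the reading of columns by order. With all 24 libraries in one fit, Tnfaip3 for genotype by TGF-β missed the threshold (adjusted p = 0.0161). With only the libraries identified by read counts, the values within WT missed it (adjusted p from 0.0172 to 0.0316). Groups of 3 are too small for a check of single samples that stand apart.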

How the results depend on the processing

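The 33 differences of members that passed kept their direction in every alternative other than the columns as headed. Over 317 refits with another setting 284 kept their side of the threshold and 33 did not, and over the 252 refits without 1 library 205 did and 47 did not. With the columns as headed, 20 of 33 lost the threshold and 13 changed direction. The latter were Nfkbia at 0.0281 and Tnfaip3 at 0.0322 for TGF-β against control in WT, Nfkbid at −0.0352 for both cytokines against control, Relb at −0.0307 for both against IL-4, Nfkbia at −0.16, Nfkbid at −0.0603 and Nfkbie at −0.0835 for both against TGF-β, Nfkbia at −0.0402 and Tnfaip3 at −0.0114 for genotype by TGF-β, and Nfkbia at −0.27, Nfkbie at −0.18, Rel at −0.0692 and Tnfaip3 at −0.16 for TGF-β by IL-4. As headed, the members that passed went to 0 in all 16 comparisons by either rule (from 6, 4, 2, 4, 1 or 5 by adjusted p, and from 1 or 2 by the stricter rule).

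Except for the columns as headed, the share of all genes passing by adjusted p alone was not computed for the alternatives. The counts of members by that rule, here and below, therefore have no background beside them and show no gain particular to the members. At an adjusted p under 0.05, members passing went from 0 to 1 for IL-4 in WT and from 2 to 5 for both against IL-4. In the latter comparison 52.9% of all genes were at an unadjusted p under 0.05 (limma). Members passing went from 1 to 4 for KO against WT in control, from 0 to 3 for KO against WT with IL-4 and from 0 to 3 for genotype by both cytokines. With all 24 libraries in one fit they went from 0 to 1 for IL-4 in WT, from 1 to 4 for KO against WT in control, from 0 to 1 with IL-4, from 0 to 2 for genotype by both cytokines, and by the stricter rule from 1 to 0 for genotype by TGF-β. That fit lost 4 calls, Tnfaip3 for genotype by TGF-β (adjusted p = 0.0161) and for both against control (0.0251), Nfkbid for both against TGF-β (0.0204) and Relb for both against IL-4 (0.0319). With only the libraries identified by read counts, 2 per WT culture, 9 of 20 calls were lost, with all directions kept. Members passing went from 2 to 0 for both against IL-4 and from 4 to 0 (2 to 0 by the stricter rule) for TGF-β by IL-4. Nfkb2 (adjusted p = 0.0109) and Tnfaip3 (0.0176) were lost for TGF-β against control, and Tnfaip3 for both against control (0.0127). Fewer libraries were fitted there. With no filter, 4 became 2 for both against control and for both against TGF-β, and without the trend 4 became 2 for the latter. The cause was not tested.

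With the replicate number as a block, Rel in KO with both cytokines (adjusted p = 0.0249), Tnfaip3 in WT with both (0.0149), Nfkbia between genotypes in control (0.0189) and Rela between genotypes with TGF-β (0.0218) lost the threshold, so members passing went from 1 to 0 for KO with both and for KO against WT in control. The block changed no other call of a member. Between genotypes the libraries share only a number.

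With 1 library left out, members passing by adjusted p ranged from 3 to 6 for TGF-β in WT, from 1 to 5 for both against control, from 1 to 2 for both against IL-4, from 2 to 4 for both against TGF-β, and from 0 to 1 for both in KO, for KO against WT in control and for genotype by both. By the stricter rule they ranged from 0 to 1 for TGF-β in WT, from 0 to 2 for genotype by TGF-β and from 1 to 2 for TGF-β by IL-4.

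Over all genes, calls by the stricter rule at a minimum RPKM of 5 went from 555 to 342 for TGF-β in WT, 910 to 580 for both, 125 to 80 for IL-4, 241 to 153 for IL-4 in KO, 237 to 149, 938 to 591 and 831 to 550 for KO against WT in control, with TGF-β and with both, and 456 to 284 for genotype by TGF-β, with fewer genes tested. With no filter they went from 125 to 83 for IL-4 in WT, 299 to 194 for both against TGF-β, 241 to 154 and 185 to 99 for IL-4 and both in KO, 289 to 149 for KO against WT with IL-4 and 173 to 106 for TGF-β by IL-4. With the identified libraries IL-4 in WT gave 73, both against TGF-β 452 and TGF-β by IL-4 91, the last giving 284 at an adjusted p under 0.05. The block gave 88 for both in KO. TGF-β in KO ranged from 0 to 3 and genotype by IL-4 from 1 to 15. As headed the counts were 0, except 7 for KO against WT in control. All 10 members kept a promoter DHS at a −log10 q of at least 5. Without counts, the depth limits of single values are unknown, and 16 columns are placed by their order alone.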
